A study of Mus musculus with 3 samples.

Results

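The 10 genes described here are *Fos* (ENSMUSG00000021250), *Fosb* (ENSMUSG00000003545), *Jun* (ENSMUSG00000052684), *Junb* (ENSMUSG00000052837), *Atf3* (ENSMUSG00000026628), *Egr1* (ENSMUSG00000038418), *Nr4a1* (ENSMUSG00000023034), *Nr4a2* (ENSMUSG00000026826), *Nr4a3* (ENSMUSG00000028341) and *Dusp1* (ENSMUSG00000024190). They were picked by name, without a measured value in the rule, but with earlier results of these data known. They make up 10 of the 31053 mouse genes counted in every library. All but *Dusp1*, which encodes a phosphatase of MAP kinases, encode transcription factors. Immediate early genes are transcribed from factors that a cell already holds, as soon as a signal arrives and before any new protein is made, and their short-lived transcripts soon decay. Fos and Jun proteins pair as AP-1, Egr1 is a zinc finger factor, and the NR4A proteins are orphan nuclear receptors that are best known as genes of antigen receptor signalling in lymphocytes. Macrophages and neutrophils switch such genes on when they sense danger signals, and the same genes are known to respond when tissue is digested into single cells.

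The study set mouse bone marrow cells in culture beside mouse cells recovered from implanted skin. Co-Mac was the untreated culture, in which C57/BL6 bone marrow cells were grown for 7 days with GM-CSF, a growth factor for macrophages, granulocytes and dendritic cells. VD-Mac was the same culture given 1 µM 1,25-dihydroxycholecalciferol, the active form of vitamin D3 (VD3), for 24 h from day 7. hSTSG, called the graft here, held cells from human split-thickness skin that had lain under the skin of C57BL/6J mice for 14 days. The grafts of 5 mice were pooled, minced and digested with collagenase IV, and no digestion is stated for the cultures. The animals' age is not given for any group. Mouse genes alone were counted, and human cells of the graft were not looked for.

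Each condition had 1 droplet library of 3′ ends, so no value has a spread over replicates, and the intervals given with levels and ratios cover counting error alone. After quality limits, 7257 cells of Co-Mac, 8825 of VD-Mac and 2144 of the graft were kept. They held 132574308, 116461484 and 22646544 unique transcript counts (UMIs), in the same order. The median cell held 15804 UMIs in Co-Mac, 12089 in VD-Mac and 6637.5 in the graft, and mitochondrial genes took a median of 5.30%, 5.60% and 3.01% of UMIs. Kept barcodes were nearly all distinct, with 15 sequences shared by the 2 cultures, 3 by Co-Mac and the graft, and 6 by VD-Mac and the graft. A level, in CPM, is the UMIs of a gene per 1000000 UMIs, summed over all cells named.

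Clusters were named from marker genes, and the cultures labelled as macrophages held several classes. In Co-Mac, 2124 cells were macrophage-like, 1482 granulocyte-like and 2640 like mature dendritic cells. VD-Mac held 1057 macrophage-like, 1128 granulocyte-like and 3324 mature dendritic cell-like cells, and 3106 of its cells stayed unnamed. The graft held 629 macrophage-like, 517 granulocyte-like, 301 T or NK cell-like, 139 fibroblast-like and 99 mature dendritic cell-like cells. It also held 44 B lineage-like cells, 25 endothelial cell-like cells, 14 basophil or mast cell-like cells and 376 unnamed cells. Of the 44, 54.5% reached the UMI count of B lineage markers that was set for naming, and 63.6% reached it for macrophage markers. The keratin genes *Krt71* and *Krt25* were among the leading genes of their cluster. Whether that cluster mixes kinds of cells was not tested, and B lineage cells below means all 44. Because 1 library stands for each condition, tissue, digestion and library preparation cannot be told apart in any value that sets the graft beside a culture.

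All 10 genes stood higher in the graft than in either culture, and their summed level was 746 CPM in Co-Mac, 1038 CPM in VD-Mac and 6473 CPM in the graft. Among the AP-1 genes, *Fos*, the dimer partner that needs Jun to bind DNA, was at 54.3 CPM in Co-Mac, 82.6 CPM in VD-Mac and 739 CPM in the graft. Its relative *Fosb* was at 33.4, 52.1 and 600.0 CPM in the same order. Both were therefore lowest in the untreated culture and more than 10-fold higher in the graft, with a ratio of graft to Co-Mac of 13.6 for *Fos* (95% interval 13.2 to 14.0) and of 17.97 for *Fosb* (17.4 to 18.6). *Jun*, which binds DNA with Fos or with itself, was at 74.2, 129 and 539.6 CPM in Co-Mac, VD-Mac and the graft. *Junb*, a Jun relative that is often made along with Fos, was at 278, 437 and 1849 CPM. For these Jun genes the graft exceeded Co-Mac by less than for the Fos genes, 7.27-fold (7.08 to 7.47) for *Jun* and 6.66-fold (6.57 to 6.75) for *Junb*. *Atf3*, a stress-induced factor that pairs with Jun proteins, was at 69.1 CPM in Co-Mac, 94.99 CPM in VD-Mac and 357 CPM in the graft. *Egr1* was at 83.3, 112 and 888 CPM. The graft exceeded Co-Mac 5.16-fold (5.01 to 5.32) for *Atf3* and 10.7-fold (10.4 to 10.9) for *Egr1*.

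The 3 NR4A genes did not share a pattern in the cultures. *Nr4a1* was at 0.558 CPM in Co-Mac and 0.670 CPM in VD-Mac, and at 162 CPM in the graft. *Nr4a2* was at 3.71 and 3.55 CPM in the cultures and at 270.3 CPM in the graft. Both were thus nearly silent in culture, and the graft exceeded Co-Mac 290.5-fold (231 to 371) for *Nr4a1* and 72.8-fold (66.4 to 80.0) for *Nr4a2*. *Nr4a3*, in contrast, was well detected in culture, at 94.9 CPM in Co-Mac and 68.7 CPM in VD-Mac, and was at 279.8 CPM in the graft. Its ratio of 2.95 (2.86 to 3.04) was the smallest of the 10 genes. *Dusp1*, whose product switches off the MAP kinases that induce the other genes, was at 54.5, 57.1 and 788 CPM, with the graft 14.5-fold (14.1 to 14.9) above Co-Mac.

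**Figure D1:**
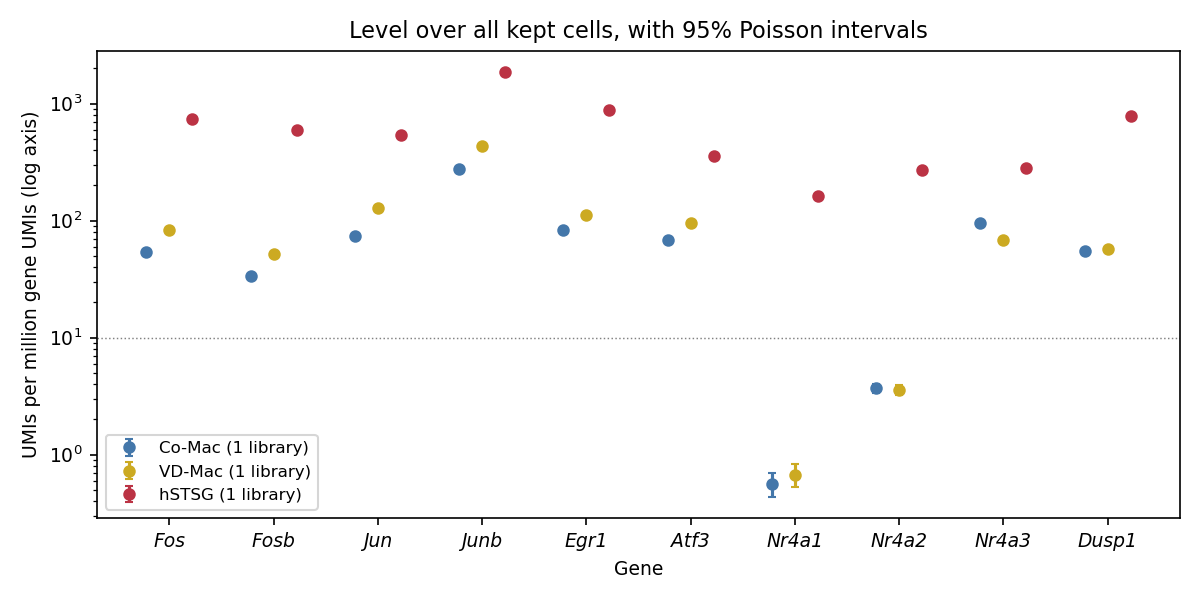
Level of each of the 10 genes in the 3 libraries, in CPM on a log axis, with bars for the 95% Poisson interval of 1 library each and a dotted line at 10 CPM. The graft point lies highest for all 10 genes, and *Nr4a1* and *Nr4a2* are the genes under the line in both cultures.

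Counted against other genes, the graft to Co-Mac difference took in every member. A gene counts as higher or lower when its levels lie 2-fold or more apart and the larger of them reaches 10 CPM. All 10 genes were higher in the graft, none was lower, and 8 of them reached 10 CPM in both libraries, whereas *Nr4a1* and *Nr4a2* met the minimum through the graft alone. Of the 8815 genes that met the minimum, 24.7% were higher and 16.6% lower. The median log2 ratio of the 10 genes was 3.59, beside 0.075 for the 8815 genes.

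The difference was also present within the 3 classes that were compared, with other sizes for single genes. In macrophage-like cells all 10 genes were higher in the graft and none lower, beside 17.8% higher and 20.6% lower of 8269 genes. Of the 10, 8 reached 10 CPM in both, and *Nr4a1* and *Nr4a2* met the minimum through the graft alone. The median log2 ratio of the 10 was 2.90, beside −0.15 for all 8269 genes. There *Dusp1* went from 49.6 CPM in Co-Mac to 833 CPM in the graft, *Fos* from 82.8 to 667 CPM, and *Junb* from 298 to 2069 CPM. *Nr4a2* was at 2.77 CPM in Co-Mac and 278 CPM in the graft, a ratio of 100.4 (86.1 to 118), and *Nr4a1* was at 0.684 and 128 CPM. *Jun* had a ratio of 4.80 and *Nr4a3* of 4.72 in these cells, the smallest of the 10. The macrophage-like cells of the 2 libraries also differed in kind: summed over 12 macrophage markers they held 19727 CPM in the graft, led by *Apoe* at 6124 CPM, and 1828 CPM in Co-Mac, led by *C1qb* at 575 CPM. Markers of fibroblasts, all 7 of which were detected, summed to 136 CPM in graft macrophage-like cells, led by *Col3a1* at 43.1 CPM, and to 7.91 CPM in those of Co-Mac. The part of these differences in the levels of the 10 genes was not tested.

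In granulocyte-like cells *Dusp1*, *Nr4a3* and *Atf3* had large ratios. All 10 genes were higher in the graft and none lower, in a comparison where 19.4% of 8131 genes were higher and 57.1% lower. Of the 10, 7 reached 10 CPM in both libraries, and the NR4A genes met the minimum through the graft alone. *Nr4a2* was found there in a share of cells no larger than that of a fibroblast gene, and *Fosb* and *Nr4a1* were close to that share. Whether the UMIs of these genes there are background was not tested, and expression of *Nr4a2* is not claimed in these cells. *Dusp1* went from 15.6 CPM in Co-Mac to 2459.9 CPM in the graft, 158-fold (139 to 179). *Nr4a3* went from 3.94 to 329 CPM, 83.6-fold (64.8 to 109), and *Atf3* from 17.4 to 823 CPM, 47.4-fold (41.7 to 53.9). A precursor-like cluster, 560 of the 1482 granulocyte-like cells of Co-Mac, held 12637515 of their 17268402 UMIs. Without it, a setting chosen after seeing the data, 9 genes were higher, and the log2 ratio was 6.42 for *Dusp1* (7.30 as reported), 5.99 for *Nr4a3* (6.39), 4.53 for *Atf3* (5.57), 3.12 for *Jun* (3.86), 2.61 for *Junb* (3.67) and 2.51 for *Egr1* (3.44). The size of these ratios thus depends on the cells taken, and the first 3 stayed large. *Fos* and *Fosb*, in contrast, had ratios of 2.64 and 2.78 there. For *Fos* the call did not hold with every setting: its log2 ratio of 1.40 was 0.60 as a mean over cells, 0.67 in cells thinned to 2000 UMIs, 0.46 without the precursor-like cluster, and 2.93 when centred on the median gene. The 2 groups of granulocyte-like cells also differed in markers of maturity and of other cells and in mitochondrial share, a median of 0.476% in the graft and 4.25% in Co-Mac, and the part of this in the 10 genes was not tested. Summed neutrophil markers were at 125644 CPM in the graft and 34739.5 CPM in Co-Mac, led by *S100a8* at 59143 and 20155 CPM. Of 9 precursor markers, 6 were detected in the graft, with *Elane*, *Prtn3* and *Ctsg* at 0, and all 9 in Co-Mac, led by *Prtn3* at 625 CPM. Globin and other erythroid genes summed to 5828 CPM in graft granulocyte-like cells, led by *Hbb-bs* at 2863 CPM, and to 0.174 CPM in those of Co-Mac. The median gene stood at a log2 ratio of −1.53 in this comparison, so that centring on it moved the share of called genes that were higher from 25.3% to 49.9%, while the count of 10 higher genes did not change.

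In mature dendritic cell-like cells 8 of the 10 genes were higher in the graft and none lower, beside 30.7% higher and 16.2% lower of 7543 genes. Of the 10, 6 reached 10 CPM in both libraries, and *Fos*, *Fosb*, *Nr4a1* and *Nr4a2* met the minimum through the graft alone. *Fos* was at 5.04 CPM in Co-Mac and 364 CPM in the graft, and *Nr4a2* at 6.42 and 538 CPM. *Nr4a3* was at 234 CPM in Co-Mac, its highest level among the 3 large classes of that culture, and at 1751 CPM in the graft. *Nr4a1* had 1 UMI in these cells of Co-Mac, and its ratio of 3675 has an interval from 647 to 146377. *Jun*, at 38.9 and 58.6 CPM, and *Atf3*, at 75.9 and 149.6 CPM, were the genes under the 2-fold limit. Macrophage markers, all 12 detected, summed to 1062 CPM in these cells of the graft and 121.6 CPM in those of Co-Mac, led by *Lgmn* at 348 and 69.6 CPM. The 6 markers of the class itself summed to 2990.3 and 6492 CPM, led by *Ccr7* at 1898 CPM in the graft and *Ccl22* at 3283 CPM in Co-Mac. The part of this in the 10 genes was not tested. The median gene had a log2 ratio of 0.35 here, and the 10 genes a median of 2.70. The graft cells numbered 99 at resolution 0.5 and 33 at resolutions 0.3 and 0.8, and no graft cluster took this name with 30 principal components.

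Depth differed between the libraries, so the levels were also compared between cells of like depth. In graft macrophage-like cells the summed level of the 10 genes was 10910 CPM in cells of 500 to 2000 UMIs and 4748 CPM in cells of 20000 or more. In Co-Mac it was 1027 CPM in macrophage-like cells of 5000 to 10000 UMIs and 784 CPM in those of 20000 or more. Shallow cells thus had higher levels in both, and the libraries stayed apart at each depth. Graft granulocyte-like cells had 12278 CPM in cells of 500 to 2000 UMIs and 4870 CPM in cells of 5000 to 10000 UMIs, where those of Co-Mac had 1978 and 881 CPM. In all 3 depth bins with enough macrophage-like cells, all 10 genes were higher in the graft. In the 3 bins of granulocyte-like cells 9 genes were higher, and *Fos* was the gene short of 2-fold. Over all cells the 10 genes were higher in 4 of 5 bins, and in the deepest bin *Nr4a3*, at 135 CPM in the graft and 79.1 CPM in Co-Mac, fell short. No share of all genes is given for single depth bins, so these counts are not set against other genes.

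**Figure D2:**
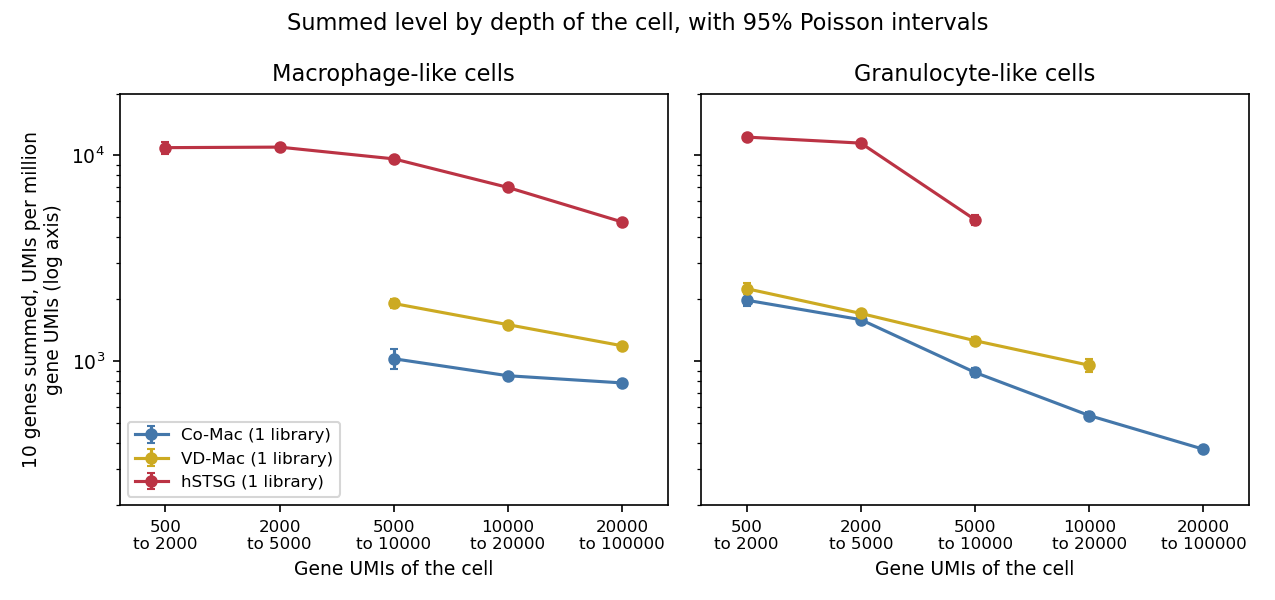
Summed level of the 10 genes in CPM, on a log axis, against the UMIs per cell in bins, for macrophage-like and granulocyte-like cells of the 3 libraries, with bars for 95% Poisson intervals. The graft line lies above both culture lines in the 3 bins of each class where all 3 libraries have a value. It runs from 12278 CPM in its shallowest granulocyte-like cells to 4748 CPM in its deepest macrophage-like cells.

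Within the graft, the 10 genes sorted the classes in different ways. The classes differ in depth, and the levels below are not matched for it. The 376 unnamed cells are left out of the orders of classes below. Most of them form a cluster of 341 cells with erythroid as its best name, which only 1.47% of its cells met. In that cluster 96.8% of cells held 3 or more UMIs of macrophage markers and 67.7% of monocyte markers. Summed over the 10 genes, granulocyte-like cells were at 9414 CPM and macrophage-like cells at 6122 CPM. In cells of 2000 to 5000 UMIs they were at 11479 and 10975 CPM. In cells of 5000 to 10000 UMIs the order turned, at 4870 and 9623 CPM. Endothelial cell-like and fibroblast-like cells held the most *Fos*, at 1808 CPM (1700 to 1921) and 1735 CPM (1693 to 1779), levels that were not apart beyond counting error. Macrophage-like cells followed at 667 CPM and mature dendritic cell-like cells at 364 CPM, and the T or NK cell-like, B lineage, granulocyte-like and basophil or mast cell-like cells, from 227 down to 161 CPM, had overlapping intervals from each to the next. *Fosb* was led by fibroblast-like cells at 1651 CPM, then endothelial cell-like cells at 1103 CPM, and was lowest in granulocyte-like cells at 97.0 CPM. Thus the Fos genes marked the stromal cells of the graft and were low in its granulocyte-like cells.

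The Jun genes, by contrast, were high in granulocyte-like cells. *Jun* was at 1811 CPM in endothelial cell-like, 1370.5 CPM in granulocyte-like and 974 CPM in fibroblast-like cells, and at 58.6 CPM in mature dendritic cell-like cells, its lowest. *Junb* was at 2905 CPM in basophil or mast cell-like and 2742 CPM in granulocyte-like cells, which overlapped, and at 665 CPM in B lineage cells, its lowest. Many cells of the B lineage cluster also held macrophage markers, so its levels for any gene need not be those of B lineage cells alone. *Atf3* was highest in granulocyte-like cells at 823 CPM and lowest in T or NK cell-like cells at 72.6 CPM, which overlapped the basophil or mast cell-like cells at 103 CPM. *Dusp1* also was highest in granulocyte-like cells, at 2459.9 CPM. It was at 833 CPM in macrophage-like, 769 CPM in endothelial cell-like and 755 CPM in fibroblast-like cells, of which each overlapped the next, and at 277 CPM in B lineage cells. *Egr1* ran from 4167 CPM in the basophil or mast cell-like cells, through 2858 CPM in endothelial cell-like and 2499 CPM in fibroblast-like cells, down to 34.7 CPM in mature dendritic cell-like cells. For *Egr1* the neighbours that overlapped were T or NK cell-like cells at 136 CPM and B lineage cells at 116 CPM.

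The NR4A genes differed among themselves, and all 3 were highest in the basophil or mast cell-like cells. *Nr4a3* was at 4787 CPM in the basophil or mast cell-like cells, 1751 CPM in mature dendritic cell-like cells and 467 CPM in T or NK cell-like cells. It was lowest in fibroblast-like cells at 79.0 CPM and endothelial cell-like cells at 52.1 CPM, which overlapped. *Nr4a3* was thus lowest in the classes where *Fos* was highest. *Nr4a2* was at 1584 CPM in basophil or mast cell-like and 538 CPM in mature dendritic cell-like cells, and at 28.1 CPM in granulocyte-like cells, its lowest. Macrophage-like, T or NK cell-like, endothelial cell-like and B lineage cells lay between, from 278 down to 198 CPM, each overlapping the next for *Nr4a2*. Unnamed cells, which this order leaves out, held 23.1% of the *Nr4a2* UMIs of the graft and 14.0% of all its UMIs. *Nr4a1*, after the basophil or mast cell-like cells at 2376 CPM, was at 462 CPM in endothelial cell-like, 262 CPM in fibroblast-like and 221 CPM in T or NK cell-like cells. Granulocyte-like, mature dendritic cell-like and B lineage cells held the least *Nr4a1*, from 93.0 down to 83.6 CPM, with overlapping intervals. The basophil or mast cell-like cells number 14, so their levels rest on few cells of 1 pool.

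**Figure D3:**
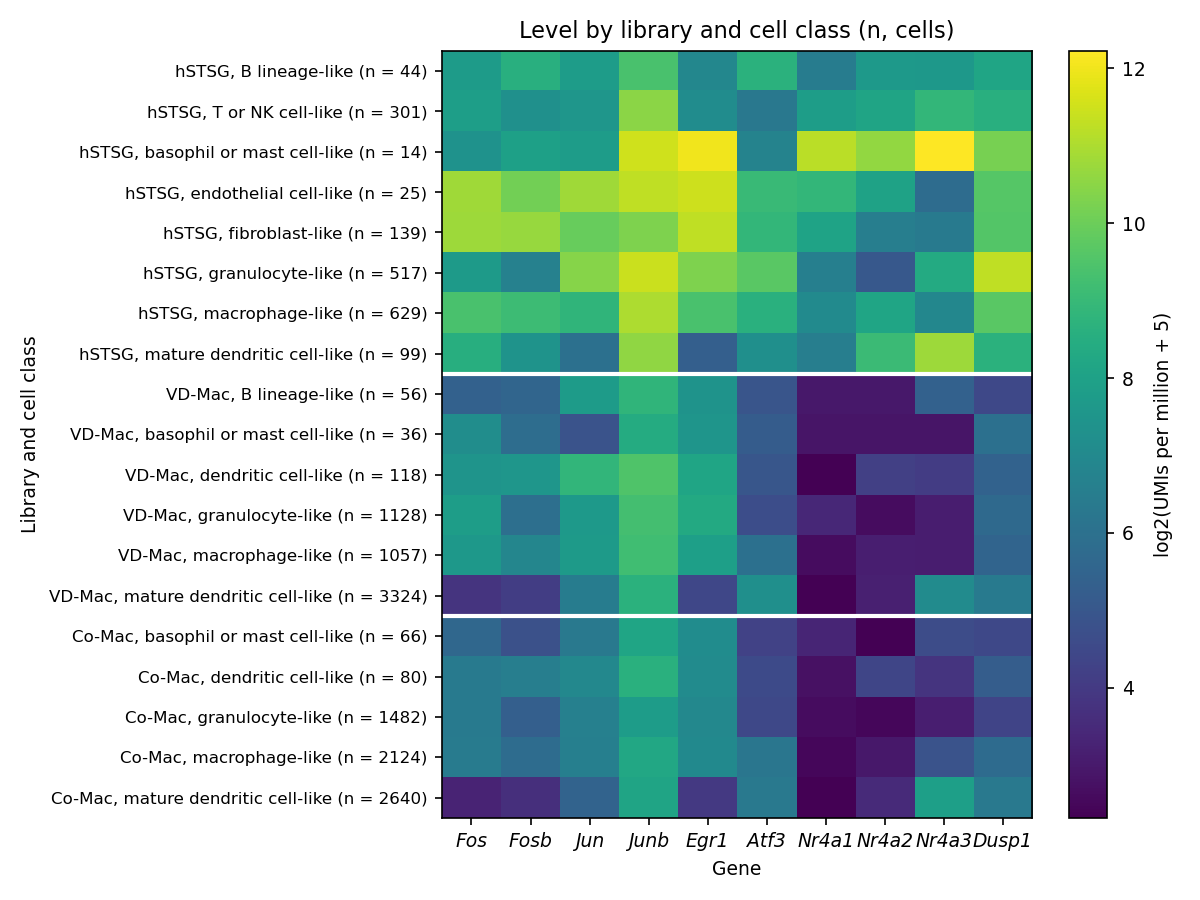
Level of each gene, as log2 of CPM with 5 added, in each library and class of cells, with the number of cells. The graft rows are the brightest, and among them *Fos* and *Fosb* peak in fibroblast-like and endothelial cell-like cells, *Dusp1* and *Atf3* in granulocyte-like cells, and *Nr4a3* in basophil or mast cell-like and mature dendritic cell-like cells.

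Classes also took unequal shares of the graft's UMIs. Fibroblast-like cells were 6.48% of graft cells and held 16.0% of its UMIs, yet 45.2% of its *Egr1* UMIs and 44.1% of its *Fosb* UMIs. Mature dendritic cell-like cells were 4.62% of cells with 5.73% of UMIs and held 35.8% of the *Nr4a3* UMIs. Granulocyte-like cells were 24.1% of cells with 6.60% of UMIs and held 20.6% of the *Dusp1* UMIs. Macrophage-like cells, 29.3% of cells, held the largest share of all UMIs, 42.4%, but of these genes' UMIs 31.6% for *Egr1*, 38.3% for *Fosb* and 17.2% for *Nr4a3*, while *Junb* at 47.4%, *Atf3* at 45.4%, *Dusp1* at 44.8% and *Nr4a2* at 43.6% were above it. The class that weighs most in a value over all graft cells thus depends on the gene.

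Clusters of 1 class also differed. The graft had 2 macrophage-like clusters, with summed levels of 7543 CPM in 356 cells and 4712 CPM in 273 cells. Of its granulocyte-like clusters, the larger, of 477 cells, summed to 11658 CPM, and the smaller, of 40 cells, to 1924 CPM. In Co-Mac the granulocyte-like clusters summed to 1692 CPM in 556 cells, 855 CPM in 366 cells and 392 CPM in the 560 precursor-like cells. The lowest graft cluster of granulocyte-like cells was therefore above the highest of Co-Mac.

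The genes were found in many graft cells and often together. To compare cells of unequal depth, each cell was thinned at random to 2000 UMIs, and cells under that were left out. Among 567 graft macrophage-like cells, 50.8% held *Fos* after thinning, and 77.1% of the 629 held it before. In Co-Mac macrophage-like cells the shares were 15.3% and 71.2%. The unthinned shares compare cells of unequal depth, with a median of 12253 UMIs in graft and 23647.5 UMIs in Co-Mac macrophage-like cells. *Dusp1* was in 63.7% of thinned and 89.0% of unthinned graft macrophage-like cells, and in 8.67% and 59.2% of those of Co-Mac. *Nr4a1* was in 22.6% and 50.9% of the graft cells, thinned and unthinned, and in 0.188% and 1.51% of those of Co-Mac. As a background, from free RNA, doublets or misnamed cells, which cannot be told apart here, the macrophage gene *C1qa* was in 1.02% of thinned and 6.64% of unthinned T or NK cell-like cells of the graft, whose median depth was 5552 UMIs, against 75.1% and 82.5% of macrophage-like cells. The fibroblast gene *Col3a1* was in 8.99% of thinned and 42.9% of unthinned macrophage-like cells, against 98.6% and 100.0% of fibroblast-like cells, whose median depth was 25493 UMIs. The thinned shares of *Fos*, *Dusp1* and *Nr4a1* were all above that of *Col3a1*.

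In graft granulocyte-like cells, of median depth 2334 UMIs, *Dusp1* was in 84.7% of thinned and 90.9% of unthinned cells. *Fos* was in 22.8% and 27.3%, and *Nr4a2* in 2.79% and 3.68%. *Col3a1* was in 11.4% and 15.1% of the same cells, larger shares than those of *Nr4a2*. The background of *Nr4a2* itself was not tested, and its expression is not claimed in these cells. *Fosb*, at 13.6% and 15.9%, and *Nr4a1*, at 13.4% and 18.6%, were close to the share of *Col3a1*. *Nr4a3* was in 32.3% and 37.5% of them. Mature dendritic cell-like cells of the graft, of median depth 13966 UMIs, held *Nr4a3* in 92.4% of thinned and 96.0% of unthinned cells, and *Col3a1* in 2.17% and 24.2%. T or NK cell-like cells held *Nr4a3* in 46.8% and 74.4%, where *Col3a1* was in 8.47% and 23.9%.

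At least 5 of the 10 genes were found in 41.6% of the thinned graft cells, 767 of 1843, in 0.339% of those of Co-Mac and in 0.717% of those of VD-Mac. The median thinned cell held 4 of the genes in the graft and 1 in each culture. By class, the graft share with at least 5 was 84.6% of 13 basophil or mast cell-like cells and 80.0% of 25 endothelial cell-like cells, then 63.0% in fibroblast-like, 53.5% in granulocyte-like, 47.6% in macrophage-like, 34.8% in mature dendritic cell-like, 22.0% in T or NK cell-like and 19.5% in B lineage cells. Within graft macrophage-like cells some of the genes varied together from cell to cell, with a Pearson r of 0.46 for *Fos* and *Egr1*, 0.46 for *Fos* and *Dusp1* and 0.44 for *Egr1* and *Dusp1*, the 3 highest of the pairs, over 567 thinned cells. *Nr4a3* stood apart, with an r of −0.040 to *Jun*, −0.010 to *Dusp1* and 0.010 to *Fos*, and at most 0.15, to *Nr4a2*. The highest r of any pair was 0.59 in T or NK cell-like cells, for *Fos* and *Fosb* over 295 cells, and 0.06 in macrophage-like cells of Co-Mac. These values describe cells of 1 library each, and the cultures hold few UMIs per gene. Graft macrophage-like cells pool clusters with summed levels of 7543 and 4712 CPM, and no r is given within either.

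VD-Mac against Co-Mac sets the VD3-treated culture beside the untreated one. With 1 library each, VD3 cannot be told apart from handling or library preparation, and no vehicle is stated for Co-Mac. As a check on the treatment, *Cyp24a1*, the enzyme that degrades VD3 and a target of its receptor, had 1 UMI in Co-Mac and stood at 314.8 CPM in VD-Mac. The receptor gene *Vdr* was at 51.1 and 134.7 CPM, and these 2 genes of the VD3 response check were both higher. Of the 10 genes, 8 reached 10 CPM in either culture and none was 2-fold apart over all cells, beside 2.16% higher and 4.63% lower of 7732 genes. Their median log2 ratio was 0.53, and that of all 7732 genes −0.10. *Jun* had the largest log2 ratio at 0.80, *Junb* was at 0.65 and *Fosb* at 0.64. Among these 8, *Nr4a3* was the gene with a lower level in VD-Mac, at a log2 ratio of −0.47, and *Dusp1* stood at 0.065. In cells of like depth 1, 0, 1, 2 and 0 genes were higher over the 5 bins, from the shallowest to the deepest, and none was lower. The shares of 2.16% and 4.63% are for cells of all depths. No share is given for single bins, here or in the classes below. *Nr4a1* and *Nr4a2* were under 10 CPM in both cultures.

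Within macrophage-like cells, 3 of 8 genes were higher in VD-Mac and 1 lower, beside 3.84% higher and 9.34% lower of 7814 genes, whose median log2 ratio was −0.16. *Fos* was at 82.8 CPM in Co-Mac and 191 CPM in VD-Mac, 2.31-fold higher (2.21 to 2.41). *Fosb* was at 51.5 and 113 CPM, and *Jun* at 93.1 and 205 CPM. *Nr4a3* was at 24.0 and 3.70 CPM, a log2 ratio of −2.70 (−3.09 to −2.34), and met the minimum through Co-Mac alone. The classes did not hold matching clusters: in Co-Mac 1119 of the 2124 cells came from a cluster led by cell cycle genes, while the cluster of VD-Mac led by such genes, of 1078 cells, stayed unnamed, though 89.7% of its cells held 3 or more UMIs of macrophage markers. None of the 4 calls held with every setting. Between cells of like depth 2, 3 and 0 genes were higher, from the shallowest of 3 bins to the deepest, which held 1436 of the 2124 Co-Mac cells, and 1 gene was lower in 2 of the bins. No gene was higher or lower at a finer cluster resolution of 0.8. Under settings chosen after seeing the data, no gene was higher where a cluster without a clear name took its next name, and *Nr4a3* was not lower without the clusters led by cell cycle genes. In Co-Mac *Nr4a3* was at 34.3 CPM in the macrophage-like cluster led by cell cycle genes and at 5.04 CPM in the other. Macrophage markers summed to 2962 CPM in VD-Mac and 1828 CPM in Co-Mac macrophage-like cells, and the part of this in the 10 genes was not tested.

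In granulocyte-like cells 5 of 7 genes were higher in VD-Mac and none lower, beside 7.43% higher and 11.6% lower of 7932 genes. *Fos* was at 77.0 CPM in Co-Mac and 224 CPM in VD-Mac, *Egr1* at 117 and 319 CPM, and *Junb* at 216 and 607 CPM. *Jun* was at 94.6 and 194 CPM, and *Dusp1* at 15.6 and 47.1 CPM. The count was 0 without the precursor clusters, a setting chosen after seeing the data, 0 as a mean over cells and 0 at resolution 0.3. The median depth was 7687.5 UMIs in Co-Mac and 2869.5 UMIs in VD-Mac granulocyte-like cells, and between cells of like depth fewer calls were made. From the shallowest of 4 bins to the deepest, 1, 0, 1 and 2 of 7 genes were higher, and 1 gene was lower in 2 of the bins. Precursor-like cells were 560 of the 1482 in Co-Mac, and their summed level was the lowest of the granulocyte-like clusters there. In mature dendritic cell-like cells *Jun* was the 1 gene of 7 that was higher, 2.15-fold (2.03 to 2.28), and none was lower, beside 2.34% higher and 2.43% lower of 6659 genes. *Nr4a3* had a log2 ratio of −0.82 there, at 234 CPM in Co-Mac and 132 CPM in VD-Mac.

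Relatives and regulators of the 10 genes were followed as lists, with the same call. Over all cells, where 24.7% of all genes were higher in the graft than in Co-Mac and 16.6% lower, 9 of 16 AP-1 and ATF relatives were higher and 1 lower, with a median log2 ratio of 1.30. Among them *Maff*, a small Maf protein, had a log2 ratio of 4.05 and *Crem*, a factor that binds cyclic AMP elements, of 3.72. *Batf3*, an AP-1 factor of dendritic cells, was the lower one, at 142 CPM in Co-Mac and 6.76 CPM in the graft. Of 30 other immediate early genes, 25 were higher and none lower, with a median of 1.93. *Cyr61*, a matrix protein, had a log2 ratio of 11.24, *Nfkbiz*, a nuclear IκB protein, of 5.10 and *Csrnp1*, a nuclear factor, of 4.57. The wider group of rapidly induced genes was thus mostly higher in the graft, as the 10 genes were. In either culture, 13 of the 16 relatives and 29 of the 30 other immediate early genes reached 10 CPM. The rest met the minimum through the graft alone.

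Feedback inhibitors of the MAP kinase path were higher too. Of 11 MAP kinase phosphatases and feedback inhibitors that met the minimum, 10 were higher and none lower, with a median log2 ratio of 3.84. Of the 12 listed, 5 reached 10 CPM in either culture, so most of the 11 met the minimum through the graft alone. *Errfi1*, an inhibitor of the EGF receptor, had a log2 ratio of 5.65 and *Dusp2*, a nuclear phosphatase, of 4.69. Of 11 upstream kinases and serum response factors, 3 were higher, a share close to the 24.7% of all genes, and none was lower, with a median of 0.48. *Srf*, the serum response factor itself, had the largest log2 ratio among those named, 1.79, and the kinase gene *Mapk3* was at −0.65. None of the 4 NR4A partners and corepressors was 2-fold apart. The kinases, and the partners at a median of 0.19, had smaller median ratios than the feedback inhibitors. All 11 kinases and factors and all 4 partners reached 10 CPM in a culture, unlike most inhibitors, so the minimum itself sets these medians apart in part.

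Some heat shock genes were higher where the 10 genes were. Over all cells, 7 of 12 were higher in the graft and none lower, beside 24.7% higher and 16.6% lower of all genes. The 12 had a median log2 ratio of 1.66, and *Hspa1a*, *Hspa1b* and *Hspb1* met the minimum through the graft alone. *Hspa1a*, a chaperone that stressed cells make, was at 0.732 CPM in Co-Mac, 1.20 CPM in VD-Mac and 734 CPM in the graft, and *Hspb1*, a small chaperone, had a log2 ratio of 10.06. In macrophage-like cells of the graft *Hspa1a* was at 809 CPM. The part of these heat shock genes in the levels of the 10 genes was not tested. Of 8 steady genes that met the minimum, 1 was higher and 2 lower, with *B2m* at a log2 ratio of 1.14 and *Actb* at −1.06, and *Vdr* stood at 0.03.

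The lists were also counted within classes for the graft against Co-Mac. As over all cells, some listed genes met the minimum through the graft alone. In macrophage-like cells, beside 17.8% of all genes higher and 20.6% lower, 21 of 29 other immediate early genes were higher and 1 lower, 6 of 9 phosphatases and inhibitors were higher, and 7 of 12 heat shock genes were higher. Of the AP-1 and ATF relatives 7 of 16 were higher and 1 lower there, while 2 of 11 upstream kinases and factors were higher, which is about the share of all genes. In granulocyte-like cells, beside 19.4% of all genes higher and 57.1% lower, 24 of 29 other immediate early genes were higher and 1 lower, with *Ppp1r15a*, a stress-induced phosphatase subunit, at a log2 ratio of 7.02. There 9 of 16 AP-1 and ATF relatives were higher and 3 lower, 4 of 7 phosphatases and inhibitors higher and 1 lower, 2 of 10 upstream kinases and factors higher and 4 lower, and 1 of 4 NR4A partners lower. Of 11 heat shock genes 3 were higher and 6 lower in those cells, from *Hspa1a* at 10.79 to *Hspe1* at −5.59. For kinases and heat shock genes these counts are no clear departure from the shares of all genes. Of 9 steady genes 6 were lower and 1 higher there, where the median gene stood at −1.53. In mature dendritic cell-like cells, beside 30.7% of all genes higher and 16.2% lower, 11 of 16 AP-1 and ATF relatives and 19 of 27 other immediate early genes were higher, with 1 and none lower.

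Between the cultures the lists were counted in the same way. Over all cells, beside 2.16% of all genes higher and 4.63% lower, VD-Mac had 1 of 29 other immediate early genes higher and 2 lower, with *Zfp36*, which encodes an RNA-binding protein that speeds decay, at a log2 ratio of 1.04 and *Klf4* at −1.43. In macrophage-like cells, beside 3.84% higher and 9.34% lower of all genes, 7 of 28 were higher and 3 lower, led by *Ier3* at 1.72. In granulocyte-like cells, beside 7.43% higher and 11.6% lower of all genes, 15 of 28 were higher and 3 lower, with *Egr3*, a relative of *Egr1*, at 2.12 and *Klf4* at −3.61. The lower shares are near those of all genes in both classes. Of 9 heat shock genes none was higher and 6 were lower in granulocyte-like cells, with a median of −1.22. The precursor-like cells of Co-Mac have no named counterpart in VD-Mac. There the unnamed cluster led by cell cycle genes scored best for neutrophil precursors, a name dropped by the condition added after the clusters were seen. Without the precursor-like cells of Co-Mac, the calls in this class over all genes went from 589 higher and 919 lower to 125 and 200. The list counts were not made again without those cells. No upstream kinase or factor was 2-fold apart over all cells, and 1 of 4 NR4A partners was lower.

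The genes whose level ran most like the 10 genes over 15 sums of a library and a class, among 6234 genes, were led by *Ptgs2*, a prostaglandin synthase, with a Pearson r of 0.97 to the mean of the 10. *Hspa1a* and *Irgm1*, an interferon-induced GTPase, followed at 0.96. The sums share libraries, and the graft sums are the high ones, so r mostly restates the difference between graft and culture. The 10 genes themselves ranged from an r of 0.46 for *Nr4a3* to 0.93 for *Junb*. Over 567 thinned graft macrophage-like cells, where no culture enters, *Hspa1b* had the highest r to the summed 10 genes, 0.50. *Ier2*, another immediate early gene, had 0.49, *Clec10a*, a lectin of macrophages and dendritic cells, 0.48, and *Zfp36* 0.40. The other genes of these top 10 were *Hspa1a*, *Btg2*, *Ier5*, *C4b*, *Rgs2* and *Rsrp1*, with r from 0.45 down to 0.36. Here too both macrophage-like clusters of the graft are pooled, and no r is given within either.

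Promoters are shown because all 10 genes were higher in the graft and most share a short element. RefSeq promoters of build GRCm38.p6, matched by gene symbol only, were found for 9 of the 10 genes, and *Egr1* had none. The cyclic AMP response element (CRE), TGACGTCA, was searched on both strands in the 250 bases before the start, as were its core TGACG, which every CRE also holds, and the other elements. The core was in 8 of the 9 promoters, not in that of *Jun*, and in 17.8% of 32851 promoters of the same length. The whole CRE was in the *Dusp1* promoter and in 1.55% of all promoters. An EGR site, GCGNGGGCG, was in the promoters of *Fosb*, *Nr4a1* and *Nr4a2* and in 4.70% of all. The letters TATAA were in that of *Fos* and, on the other strand, in that of *Nr4a2*, and in 22.8% of all. The AP-1 site TGANTCA, in 6.75% of all promoters, the NR4A element AAAGGTCA, in 1.34%, and the CArG box of serum response factor, in 1.47%, were in none of the 9 windows. A match is letters in a window and no measured site.

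The 6 promoters shown are of the AP-1 genes *Fos*, *Jun* and *Junb*, the NR4A genes with the widest graft ratios, and *Dusp1*. Capitals mark the CRE or its core on either strand. *Fos* is chr12:85473690-85473889 on the plus strand, *Jun* chr4:95052223-95052422 on the minus strand, *Junb* chr8:84978749-84978948 on the minus strand and *Nr4a1* chr15:101266646-101266845 on the plus strand. *Nr4a2* is chr2:57124004-57124203 on the minus strand and *Dusp1* chr17:26508520-26508672 on the minus strand. Each is 200 bases up to the start of the gene, except *Dusp1* with 153 bases that end 48 bases before it.
Fos: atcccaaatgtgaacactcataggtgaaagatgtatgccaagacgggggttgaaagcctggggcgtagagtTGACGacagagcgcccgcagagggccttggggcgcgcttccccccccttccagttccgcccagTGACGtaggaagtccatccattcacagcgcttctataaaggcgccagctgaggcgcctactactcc
Jun: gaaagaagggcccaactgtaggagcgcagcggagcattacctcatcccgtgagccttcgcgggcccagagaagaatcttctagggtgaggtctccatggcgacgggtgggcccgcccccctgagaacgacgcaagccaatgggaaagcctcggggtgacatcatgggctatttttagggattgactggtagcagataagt
Junb: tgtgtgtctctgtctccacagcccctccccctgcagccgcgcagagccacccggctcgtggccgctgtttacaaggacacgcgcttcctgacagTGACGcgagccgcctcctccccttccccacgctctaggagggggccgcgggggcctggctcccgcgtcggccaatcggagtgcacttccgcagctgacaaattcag
Nr4a1: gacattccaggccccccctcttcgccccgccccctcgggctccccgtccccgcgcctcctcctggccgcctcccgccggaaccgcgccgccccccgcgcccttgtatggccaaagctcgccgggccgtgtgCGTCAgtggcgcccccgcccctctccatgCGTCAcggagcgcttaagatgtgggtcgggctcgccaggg
Nr4a2: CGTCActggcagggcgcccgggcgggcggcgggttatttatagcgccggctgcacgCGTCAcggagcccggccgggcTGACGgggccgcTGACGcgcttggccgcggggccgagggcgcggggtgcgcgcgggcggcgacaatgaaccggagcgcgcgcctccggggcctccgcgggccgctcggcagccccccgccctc
Dusp1: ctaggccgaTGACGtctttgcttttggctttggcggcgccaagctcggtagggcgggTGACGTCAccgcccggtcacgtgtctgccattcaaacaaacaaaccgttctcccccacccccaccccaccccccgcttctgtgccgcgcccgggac
The core is there 2 times in the shown stretch of *Fos* and not at all in that of *Jun*, and *Dusp1* shows the whole CRE.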

How the data were processed

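The authors deposited raw UMI counts, made with Cell Ranger, as a matrix of genes by barcodes for each of 3 libraries; hashtag features were left out. The labels name build mm9 and the paper's methods name a human genome, while the gene identifiers are mouse Ensembl IDs. The build was therefore not settled, and no coordinate of the deposited data is given. A barcode was kept if it held 300 genes or more, less than 100000 UMIs and under 10% mitochondrial UMIs. Each library was clustered with Seurat 5.3.0 under R 4.3.3 with Matrix 1.6.5 (scale factor 10000, 2000 variable genes without the 10 genes and listed genes, 15 principal components, 15 neighbours, resolution 0.5). A cluster took the name with the highest mean log2 ratio of its markers, from 13 marker sets, with 5 CPM added, if the mean was at least 0.5 and 3 markers were detected. After the clusters were seen, a condition was added that 25% of its cells hold 3 UMIs of those markers. By a rule held before the files were read, but not written in the fixed design, a cluster whose median depth was under its library's median divided by 3, with none of the markers among its 10 leading genes, stayed unnamed. Doublets were not called. Levels were summed per library and class. Level intervals are exact Poisson, ratio intervals exact binomial, both 95%; a count of 0 allows up to 3 counts. No test was run, with 1 library per condition. Depth bins and pairs of genes needed 20 cells, and sums for likeness 50 cells. Thinned values use 2000 UMIs per cell, drawn with seed 20. Called genes were 2-fold apart with 10 CPM in the higher sum. From each of 8 lists, at most 4 genes per comparison fall under the naming rule, those with the largest absolute log2 ratio among genes whose larger level reached 50 CPM; a few others were named after their values were seen. The 10 genes and the lists were chosen with earlier results of these data known. Alternatives changed the quality limits, totals, centring, weighting, thinning, fold, minimum level and clustering. Python 3.11.15, numpy 2.4.6, pandas 2.3.3, scipy 1.17.1 and matplotlib 3.10.9 were used, and the code was tested on simulated data.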

Additional observations from a re-analysis of the deposited data

Results flagged for a closer look

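Barcodes that failed the quality limits enter no comparison above, and the 10 genes were measured in them as well. Their summed level was 1028 CPM in the barcodes left out of VD-Mac and 3443 CPM in those left out of the graft, both above the 723 CPM in those left out of Co-Mac, and this difference is why they are given here. Among barcodes with at least 10% mitochondrial UMIs the summed level was 6645 CPM in the graft, 1083 CPM in VD-Mac and 796 CPM in Co-Mac. Among barcodes with under 300 genes it was 267 CPM in the graft, 156 CPM in VD-Mac and 151 CPM in Co-Mac. The cause of the difference was not tested.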

How the results depend on the processing

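For the graft against Co-Mac, the count of higher genes was 9 to 10 over all cells, 10 in macrophage-like, 8 to 10 in granulocyte-like and 7 to 10 in mature dendritic cell-like cells, and 0 genes were lower under every alternative run. Over both contrasts 228 counts lay within 1.5 times the reported count and 22 did not. Of the single log2 ratios, 522 lay inside the 95% interval of the reported ratio, 405 lay outside it and 1 reversed. Each count outside that limit is for VD-Mac against Co-Mac. At fold 1.5 the count of higher genes was 4 over all cells (0 as reported), 5 in macrophage-like cells (3) and 4 in mature dendritic cell-like cells (1), where 1 gene was lower (0). At fold 3 it was 0, 1 and 0 in macrophage-like, granulocyte-like (5 as reported) and mature dendritic cell-like cells. A lower or higher fold gives more or fewer calls by construction. In macrophage-like cells it was 5 with totals without mitochondrial and ribosomal protein genes, 5 when centred on the median gene, 0 at resolution 0.8 and 0 with the next name. The lower gene there, *Nr4a3*, was lost (0) with a minimum of 50 CPM, at resolution 0.3, at resolution 0.8 and without cell cycle clusters. In granulocyte-like cells the count was 0 as a mean over cells, 2 when thinned, 0 at resolution 0.3, 2 at resolution 0.8, 3 with names as scored and 0 without precursor clusters. In mature dendritic cell-like cells it was 2 with no minimum level. *Dusp1* in granulocyte-like cells reversed at resolution 0.3, at a log2 ratio of −0.063 (1.60 as reported). Apart from the folds, the cause was not tested. The settings on names, cell cycle and precursor clusters were chosen after seeing the data.

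Scaling moved the share of called genes that were higher from 65.5% to 51.4% (totals) and 49.8% (centred) in mature dendritic cell-like cells of the graft contrast. In macrophage-like cells it went from 46.3% to 37.9% (totals) and 54.5% (centred), and over all cells from 59.9% to 50.7% (totals). Centring puts the median gene at no change by construction, so the centred shares are no separate result on the balance. For VD-Mac it moved from 31.8% to 42.4% and 42.3% over all cells, from 29.1% to 40.6% (centred) in macrophage-like cells and from 39.1% to 28.6% (mean over cells) in granulocyte-like cells. In those granulocyte-like cells it was 57.0% with 30 principal components and 57.1% with names as scored, so the balance turned under these settings. Mature dendritic cell-like cells of the graft gave no value with a minimum of 300 UMIs, with 30 principal components or with the 10 genes and lists among the variable genes, since no cluster took the name. With 1 library per condition, differences between mice, pools or library preparations cannot be told apart from the conditions. Depth limits the graft most, where 3 counts come to 0.132 CPM, against 0.0226 CPM in Co-Mac and 0.0258 CPM in VD-Mac.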

Other observations

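In both cultures 2 unnamed clusters had almost no mitochondrial UMIs, and *Fos* was low in them. In Co-Mac the larger held 555 cells with a median of 0.116% mitochondrial UMIs, and the 10 genes summed to 307 CPM, with *Fos* at 6.71 CPM. In VD-Mac the larger held 1443 cells with a median of 0.340%, and the 10 genes summed to 392 CPM, with *Fos* at 8.89 CPM. The smaller cluster of Co-Mac held 65 cells with a median of 0.104%, and the 10 genes summed to 358 CPM, with *Fos* at 0 UMIs, which allows up to 8.26 CPM. Its best marker score was for mature dendritic cells, a mean log2 ratio of 0.79, but at a median of 5205 UMIs and with none of those markers among its leading genes it was left unnamed. The smaller cluster of VD-Mac held 178 cells with a median of 0.191%, and the 10 genes summed to 535 CPM, with *Fos* at 0 UMIs, which allows up to 3.87 CPM. Another unnamed cluster of Co-Mac, of 245 cells, held *Nr4a3* at 181 CPM and *Atf3* at 173 CPM.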
